A study of Arabidopsis thaliana with 3 samples.

Results

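The SPIRAL1 family of Arabidopsis thaliana holds 6 genes, SPIRAL1 (SPR1) and SPIRAL1-like 1 to 5 (SP1L1, SP1L2, SP1L3, SP1L4 and SP1L5), and 5 of them had a probe set of their own on the array. The members were taken by family name, each through a probe set that the platform annotation assigns to exactly 1 gene. The family was selected on the signal of SP1L4, which was known to be far higher in pollen than in seedlings, so the differences of the members between these tissues are given as a description, with no test. Where a gene had several probe sets the brightest was to be used, but each measured member had 1. Of 22746 probe sets, 13513 named exactly 1 gene. SP1L1 (AT1G26355) had no such probe set in the annotation and was not analysed here.

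Total RNA of the accession Col-0 was hybridised to 3 Affymetrix ATH1 arrays, on which a probe set of short oligonucleotides reports the brightness of a transcript. The germinating pollen group has 2 arrays, with pollen shed onto a medium containing 13.5% sucrose and left for 6 h at 25°C in the dark until about 80% had germinated and carried tubes. The seedling group has 1 array of young plants with roots and their earliest rosette leaves, grown on agar with sucrose. No transgene, mutation or treatment beyond these is named for either group. The sample label gives the seedlings 18 h of light and 6 h of dark, whereas the design text gives 16 h and 8 h. The design text calls the pollen hybridisation duplicated, and no label states separate plants for them, so the spread between them may be technical. The seedling group has no spread of its own.

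SPIRAL1 proteins are small plant proteins that bind microtubules, with SPR1 accumulating at the growing plus ends. Loss of SPR1 makes roots and hypocotyls twist as their cells elongate, and the cortical microtubules, which guide the direction of cell expansion, then run obliquely. The SPIRAL1-like proteins act redundantly with SPR1 in seedlings. The pollen tube is a cell that elongates at its tip, where actin filaments carry the secretory traffic, and its microtubules lie along the shank and around the male germ unit.

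Markers of the labelled tissues were checked. Of 6 measured pollen tube markers, 6 were called higher in pollen, with summed pollen signals of 111280 and 105746 and a seedling sum of 39.5. Of 5 measured genes of leaf photosynthesis, 5 were called lower, with pollen sums of 166 and 191 and a seedling sum of 29087. Control probe sets without a target, which have no partner in the RNA, reached 47.1 and 65.7 on pollen arrays 1 and 2 and 14.3 on the seedling array. Both measured tapetum genes stayed under these controls in pollen, with sums of 23.7 and 88.0. AT1G19890, the 1 measured sperm marker, had 892 and 811 in pollen against 2.35 in seedlings. Of 4 genes of other flower organs, 0 were called higher by limma and NGA1 was called lower, while SPT had 106 and 131 and RBE 91.0 and 54.8 in pollen, against 39.6 and 11.3 in seedlings. The root hair genes EXPA7 (121 and 101) and EXPA18 (113 and 56.4) were brighter in pollen than in seedlings (22.0 and 23.6), although the seedlings included roots, and EXPA7 was called higher. The seedling signals of EXPA7 and EXPA18 were under 42.3, the median of all signals, and EXPA18 was not called. On pollen array 2, EXPA18 and RBE were under the brightest control without a target (65.7). The part of these markers and of this background in the member values was not tested. The 3' to 5' signal ratio of ubiquitin, which rises as RNA degrades, was 2.02 and 2.42 in pollen and 1.59 in seedlings. Its part in the member values was not tested.

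The members differed in the tissue in which they were brighter. SP1L4 was far brighter in pollen, SPR1 and SP1L3 were brighter in seedlings, and SP1L2 and SP1L5 were close to the background on all arrays. At least 10-fold on both pollen arrays, 1 of the 5 measured members was higher in pollen (SP1L4), against 4.24% of all probe sets, and 1 was lower (SPR1), against 4.95%. Since the family was chosen with this contrast in view, nothing is read from these counts. In whole organs and pollen, fewer cells that express a gene and less RNA per cell cannot be told apart.

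**Figure D1:**
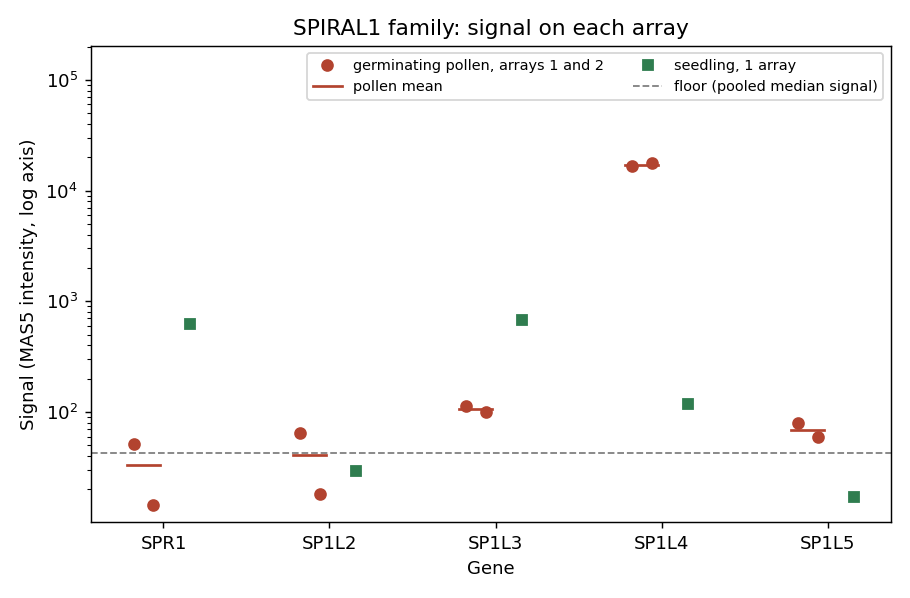
Signal (MAS5 intensity, log axis) of each measured member on the pair of pollen arrays (circles, with a bar at their mean) and on the seedling array (square); the dashed line is the floor of 42.3, the median of all signals. SP1L4 lies above its seedling signal on both pollen arrays, SPR1 and SP1L3 lie below theirs, and SP1L2 and SP1L5 lie near the floor.

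SP1L4 (SPIRAL1-like 4, AT5G15600, read by 1 probe set) had signals of 16546 and 17753 on pollen arrays 1 and 2 and of 118 on the seedling array. Both pollen arrays stood far above the seedling array, which was itself above the floor of 42.3 and above the brightest control without a target on that array (14.3). The pollen mean was 17149 ± 854 (SD, n = 2), a 145-fold ratio of mean signals, with 140-fold and 151-fold for the single pollen arrays. On the log2 scale, with the offset of 14.7 added to each signal, the difference was 7.01. It was the 158th highest of the 13513 single-gene probe sets, so that 98.8% of them had a lower difference. The pollen arrays differed 1.07-fold for SP1L4, close to the median of 1.06-fold for the 92 probe sets within 1.5-fold of its pollen brightness. Scaled by the hybridisation spikes, the ratio was 29.4-fold. RefSeq lists 2 transcripts of SP1L4, and 1 probe set does not tell them apart.

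The seedling signal of SP1L4, 118, rests on 1 array, so the size of the ratio carries an error that the pollen arrays do not show. The next protein-coding gene after SP1L4 on the chromosome, AT5G15610, had signals of 108 and 53.0 in pollen and 150 in seedlings, so neither pollen array exceeded the seedling array.

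SPR1 (SPIRAL1, AT2G03680, 1 probe set), the founding member, had signals of 51.6 and 14.4 on pollen arrays 1 and 2 and of 621 on the seedling array. Both pollen arrays lay well under the seedling array. On pollen array 1 the signal was 12.0-fold lower than in seedlings and only just above the brightest control without a target there (47.1). On pollen array 2 it was under the floor, which makes it at least 14.7-fold lower against the floor, or at least 9.45-fold lower against the brightest control without a target on that array (65.7). The log2 difference was -3.85, and 3.25% of the single-gene probe sets had a lower one. The pollen arrays differed 3.58-fold for SPR1, and 40.1% of the 5503 probe sets of like pollen brightness differed by more, so no pollen level of SPR1 other than a low one can be stated. Its count as at least 10-fold lower was lost under 75th percentile scaling and with the controls without a target as the floor.

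SP1L3 (SPIRAL1-like 3, AT3G02180, 1 probe set) had signals of 112 and 99.3 in pollen and of 676 in seedlings. It was lower in pollen on both arrays, yet above the brightest control without a target on all 3. The pollen mean was 106 ± 9.10 (SD, n = 2), 6.40-fold under the seedling signal, with 6.03-fold and 6.81-fold for the single arrays. The log2 difference was -2.52, and 9.19% of the single-gene probe sets had a lower one. Of the measured members, SP1L3 and SP1L4 were the 2 whose signals exceeded the brightest control without a target on every array. The pollen arrays differed 1.13-fold for SP1L3, less than the median of 1.31-fold for the 3662 probe sets of like pollen brightness. With spike scaling it joined SPR1 among the members at least 10-fold lower, and the ratio of mean signals was 31.8-fold.

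SP1L5 (SPIRAL1-like 5, AT4G23496, 1 probe set) had signals of 79.0 and 60.0 in pollen and of 17.2 in seedlings. Both pollen signals were above the seedling signal, but the one on array 2 was under the brightest control without a target (65.7). The seedling signal was under the floor, so the pollen mean of 69.5 ± 13.4 (SD, n = 2) was at least 1.64-fold higher against the floor. The log2 difference was 1.39, and it was -0.24 under spike scaling. The brightest controls without a target were themselves 47.1 and 65.7 in pollen against 14.3 in seedlings, a difference in the same direction as that of SP1L5, and the part of this background in its value was not tested.

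SP1L2 (SPIRAL1-like 2, AT1G69230, 1 probe set) had signals of 64.3 and 18.0 in pollen and of 29.0 in seedlings. The pollen arrays lay on either side of the seedling array, so no direction can be given. It was under the floor in seedlings and on pollen array 2, and it was the 1 measured member that did not pass the filter on dim probe sets, while 4 did. The log2 difference of 0.22 was smaller than the SD of 0.90 between the pollen arrays.

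The differences of the members spanned 10.87 log2 units from SP1L4 to SPR1. In order from pollen to seedling they ran SP1L4, SP1L5, SP1L2, SP1L3 and SPR1. Taken for each pollen array against the seedling array, the log2 differences were 6.96 and 7.07 for SP1L4, 1.55 and 1.23 for SP1L5, 0.85 and -0.42 for SP1L2, -2.45 and -2.60 for SP1L3, and -3.26 and -4.45 for SPR1. SP1L5 and SP1L2 lay near the floor, so their places in this order are uncertain. Scaling by a constant per array moves all members by about the same amount and so nearly fixes this order. These values share 1 seedling array, whose error they do not show. The order is one of differences, and levels of different genes were not compared, since probe sets differ in how brightly they report.

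**Figure D2:**
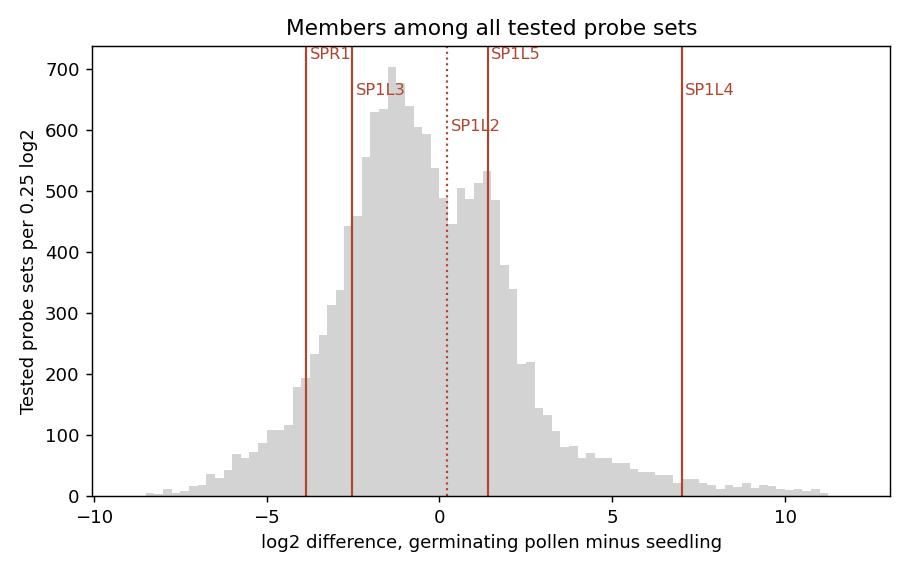
Number of tested probe sets (vertical axis, in steps of 0.25 log2 units) by log2 difference, germinating pollen minus seedling; lines mark the members, dotted for SP1L2, which did not pass the filter. SP1L4 at 7.01 lies in the far upper tail, SPR1 at -3.85 and SP1L3 at -2.52 lie in the lower part, and SP1L2 and SP1L5 lie where many probe sets do.

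The scaling of the arrays moved the differences of the members. The deposited signals had nearly equal 2% trimmed means, and they were rescaled here to equal ones. Across the 14812 tested probe sets the median difference was then -0.61 log2 units. Scaling by the 9 hybridisation spikes, whose signals on pollen arrays 1 and 2 were 5.25-fold and 4.69-fold those on the seedling array, shifted that median by -2.00, quantile normalisation shifted it by 0.31 and 75th percentile scaling by 0.47. Relative to the median of each setting, SP1L4 was higher by 7.18 to 7.95 log2 units over 5 settings and SP1L5 by 1.89 to 2.77. SP1L3 lay between -2.16 and -1.84 and SPR1 between -3.74 and -3.22 relative to the median. SP1L2 lay 0.64 to 1.10 above it.

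**Figure D3:**
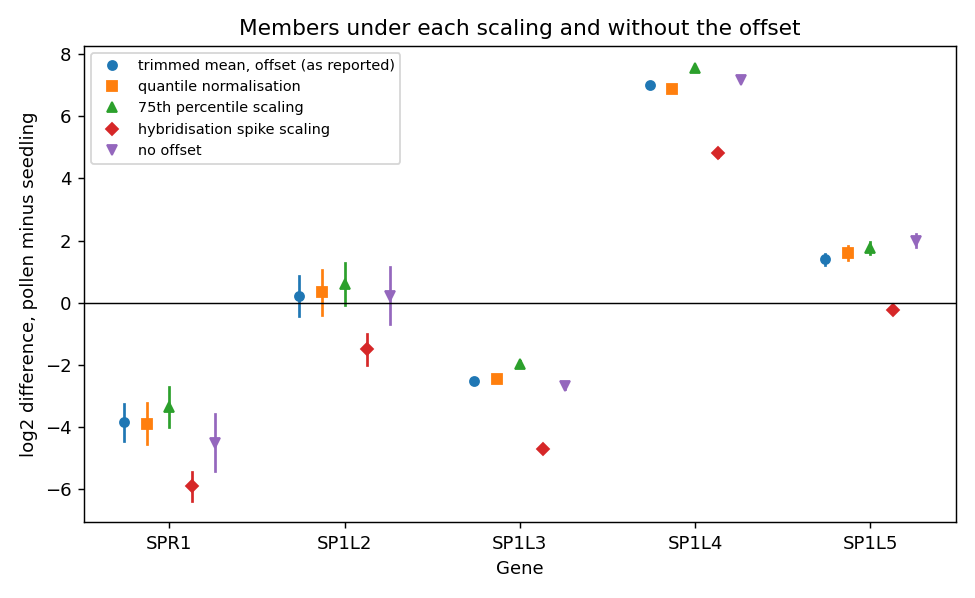
Log2 difference, pollen minus seedling, of each measured member under 4 scalings and without the offset (symbols), with lines joining the values of the single pollen arrays. SP1L4 stays above 0 and SPR1 and SP1L3 stay below 0 in all of them, while SP1L5 and SP1L2 pass below 0 under spike scaling.

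The genes most like SP1L4 over the 3 arrays were sought among 3036 other single-gene probe sets whose signal exceeded the floor on every array, by the distance between log2 signals centred on each gene's mean. The nearest was SOL1, a TSO1-like protein with a CXC domain, at a distance of 0.04 log2 units. Its signals were 8470 and 9286 in pollen and 55.6 in seedlings. AT5G47540 followed at 0.05, with 15196 and 16891 in pollen and 113 in seedlings. AT3G20300, AT4G25780 and AT3G59350 came next, at 0.31, 0.32 and 0.34. Each of these 5 was far brighter on both pollen arrays than on the seedling array, as the measure requires, with ratios of mean signals from 122-fold to 201-fold. Likeness over 3 arrays of 2 tissues says little beyond a similar ratio.

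Other genes of microtubule organisation were compared in the same way, by a list of 81 genes, of which 21 were measured. The remaining 60 had no probe set that the annotation assigns to exactly 1 gene, so their levels were not analysed. That annotation has no entry for 8730 of the 22746 probe sets, so an unmeasured gene may still be on the array. By limma with Benjamini-Hochberg adjustment over the whole table, 7 of 18 tested list genes were higher in pollen, against 22.1% of all tested probe sets, and 2 were lower, against 31.7%. The list's median log2 difference was 0.37, beside -0.61 for all tested probe sets. It was 1.56 for the 7 measured tubulins, out of 15 listed, and -0.40 for the 11 tested genes other than tubulins. The list was chosen with earlier results of these data known, so its calls and medians are given as a description.

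Tubulins, the subunits of the microtubule itself, made up most of the higher calls. Of 15 listed tubulin genes 8 were not measured, so the family is covered only in part. Among the 7 measured, 5 were higher and TUB5 was lower, beside 22.1% higher and 31.7% lower over all tested probe sets. The beta-tubulin TUB9 had pollen signals of 17237 and 18353 and a seedling signal of 423, a 42.1-fold ratio (limma adjusted p = 1.9e-05). The alpha-tubulin TUA1 had 10449 and 10384 in pollen against 187, a 55.7-fold ratio (limma adjusted p = 1.6e-05). TUB1 was 20.9-fold higher, at 1445 and 1475 in pollen and 69.8 in seedlings. TUB5, with 20.8 and 16.3 in pollen against 396 in seedlings, was at least 9.35-fold lower against the floor. It passed the filter on dim probe sets through the seedling array alone. As among the SPIRAL1 genes, members brighter in pollen and members brighter in seedlings stood in 1 family. Both sets were chosen with earlier results of these data known, so nothing is read from this likeness. TUB6 did not pass, with 9.91 and 93.9 on the pollen arrays and 387 in seedlings. TUA6 and TUB7, also called higher, were lower under spike scaling.

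Of 53 listed genes other than tubulins that the reference table names, 48 were not measured, so these genes are mostly not covered. The measured ones gave 0 calls among 4 tested by limma, beside 22.1% higher and 31.7% lower over all tested probe sets. At an unadjusted limma p under 0.05 there were also 0. Under spike scaling all 4, and WDL3, were called lower. The lattice-binding MAP65-6, a member of a family that cross-links microtubules, had 5.16 and 69.9 in pollen against 163 in seedlings. TON1B had 74.3 and 132 against 70.3. The tubulin-folding cofactors TFCC and TFCE had 74.4 and 72.3 against 56.0, and 28.8 and 103 against 79.3. WDL3 was under the floor on all arrays and was not tested. For MAP65-6 and TFCE the pollen arrays disagreed widely.

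A further 9 measured loci of the list have no name in the reference table and are given by locus. Of 7 tested by limma, 2 were higher and 1 was lower in pollen, beside 22.1% higher and 31.7% lower over all tested probe sets, so the number of higher calls is near that share. AT1G54460 had 773 and 661 in pollen against 76.6 in seedlings, a 9.36-fold ratio (limma adjusted p = 8.0e-04). AT1G50890 had 391 and 390 against 52.4, a 7.46-fold ratio (limma adjusted p = 0.0018), and this call was lost under spike scaling. AT4G32330 had 2.29 and 3.52 in pollen against 187 and was at least 4.42-fold lower against the floor. It passed the filter on dim probe sets through the seedling array alone, and its pollen signals were under the offset of 14.7.

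**Figure D4:**
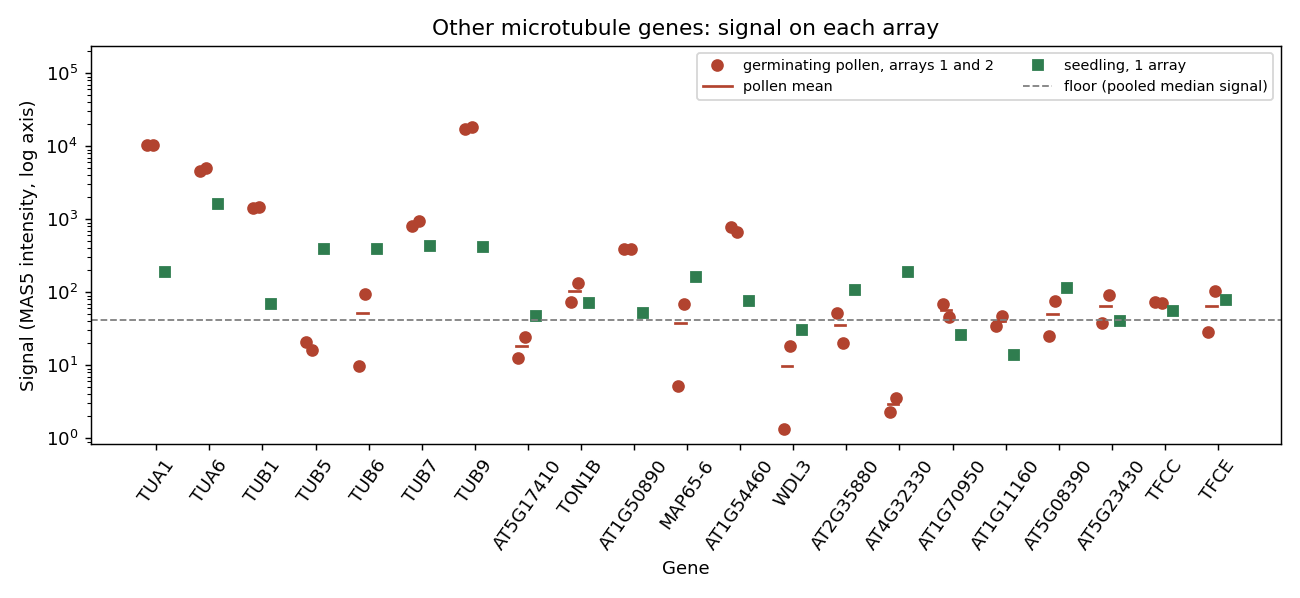
Signal (MAS5 intensity, log axis) of the 21 measured genes of the microtubule list on the pollen arrays (circles, with a bar at the mean) and the seedling array (square); the dashed line is the floor of 42.3. The tubulins TUA1, TUB1 and TUB9 show the widest gaps in favour of pollen, and most genes to their right lie near the floor.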

How the data were processed

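The authors deposited 1 linear array intensity per probe set, made with MAS5, per the submitters' processing notes. Programs named in the design text are GCOS 1.2 and Excel 2004. The 2% trimmed mean was 122 on each array. No coordinates are printed, and no sequence table was used.

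Of 22810 probe sets, 64 controls were left out. Signals were rescaled to equal 2% trimmed means, and an offset of 14.7, the 30th percentile, was added before log2, which understates differences of dim probe sets. The floor was the pooled median, 42.3. Probe sets that exceeded it on the seedling array, or on each pollen array, were tested with limma 3.58.1 in R 4.3.3 (eBayes with a trend, two-sided, Benjamini-Hochberg, threshold 0.05) over all 3 arrays, with 1 residual degree of freedom. The spread of the single seedling array is taken from the pollen arrays. The p-values therefore rest on the spread within the pair of pollen arrays, shared over all probe sets, which may be technical. A fold is a ratio of mean signals, or a bound where no array of a tissue exceeded the floor. The number of arrays limits the precision.

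Genes were named through the platform annotation and the TAIR10.1 gene table, which held all 110 listed loci; names it does not give were not used. The rule for named genes took all members, up to 3 called microtubule genes per role and direction with the widest difference, and the 5 genes nearest to SP1L4. The remaining measured genes that the reference table names outside the tubulins were named because they were few. The members and lists were chosen with earlier results of these data known.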

Additional observations from a re-analysis of the deposited data

How the results depend on the processing

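With 1 seedling array, leaving out a pollen array gives values without a test. Without pollen array 1 or 2, the log2 difference was 6.96 to 7.07 for SP1L4, -4.45 to -3.26 for SPR1, -2.60 to -2.45 for SP1L3, 1.23 to 1.55 for SP1L5 and -0.42 to 0.85 for SP1L2, which turned. Under spike scaling it was 4.82 for SP1L4, -5.91 for SPR1, -4.73 for SP1L3, -0.24 for SP1L5 and -1.51 for SP1L2, so that the last 2 turned. Under 75th percentile scaling it was 7.55 for SP1L4, -1.98 for SP1L3 and 1.75 for SP1L5. Without the offset it was 7.18 for SP1L4, -2.68 for SP1L3 and 2.00 for SP1L5, and with quantile normalisation 6.88 for SP1L4. The members at least 10-fold lower numbered 1, but 0 under 75th percentile scaling, 0 with controls as the floor and 2 under spike scaling.

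Over the whole table, limma called 3279 probe sets higher and 4692 lower, so 41.1% of calls were higher. Under spike scaling 1423 were higher and 11861 lower (10.7% higher), and the share was 53.1% under 75th percentile scaling. The 10-fold counts went from 965 higher and 1127 lower to 560 and 4185 under spike scaling. Of the microtubule list, 4 were then higher and 13 lower, and TUA6 (log2 difference -0.74) and TUB7 (-1.28) turned. Spike scaling changed 12 of the 21 list genes; under the 5 other settings run, no call of the 21 changed. The cause was not tested. No paired analysis was possible because the seedling group has 1 array and no replicate number.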
